A study of Homo sapiens with 20 samples.

Results

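miR-484 and miR-3615 are microRNAs (miRNAs) whose hairpins lie at the starts of 2 protein-coding transcripts, those of NDE1 and SLC9A3R1 (NHERF1 in RefSeq). They were taken by name as members of a pair described as needing no DROSHA, and are 2 of the 2588 mature miRNAs counted in the study. That property was read from the knockout with GFP and the untreated wild type, so the contrast of those libraries is given below as a description only. Small RNA sequencing covered 20 libraries from a pair of human lines. HEK293E derives from embryonic kidney cells, and HCT116 comes from a colorectal carcinoma.

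In 2 groups of 3 libraries each, HEK293E cells with a DROSHA knockout had been given DROSHA-p140, a shorter form of the protein, or full-length DROSHA. HCT116 knockout cells formed the same 2 rescue groups, again with 3 libraries each. A single library came from HCT116 knockout cells expressing GFP and a single one from untreated wild-type HCT116 cells. Wild-type HCT116 cells were also cultured for 72 hr with 0.1% or 9.1% fetal bovine serum (FBS), in 3 libraries each. The labels do not say how DROSHA or GFP was delivered, whether each knockout line is a single clone, or whether replicates are separate cultures, so p-values measure the spread between these libraries, which may be technical.

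DROSHA is the nuclear enzyme that cuts most miRNA hairpins out of their primary transcripts, before DICER cuts off the loop in the cytoplasm. A few hairpins bypass it. Mirtrons are short introns that are released by splicing, and some other hairpins begin at or close to the capped start of a transcript and go straight to export and DICER, with miR-320 the best described case. NDE1 is a dynein-binding protein of the centrosome that is needed for the division of neural progenitors, and SLC9A3R1 is a PDZ scaffold below the apical membrane of epithelial cells.

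The mature sequences are printed because reads were counted at their positions. Whether longer fragments of the NDE1 or SLC9A3R1 transcripts were counted there cannot be told from the tables. Capitals mark the seed, bases 2 to 8 from the 5′ end, which pairs with target transcripts.
miR-484: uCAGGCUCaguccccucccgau
miR-3615: uCUCUCGGcuccucgcggcuc

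These sequences are RefSeq's (GRCh38.p14), and their positions are those of the deposited hg38 tables. miR-484 lies on the plus strand at chr16:15643301-15643322 and comes from the 5′ arm of a hairpin of 79 bases. miR-3615 lies on the plus strand at chr17:74748663-74748683 and comes from the 3′ arm of a hairpin of 87 bases. The pair has no seed in common. The miR-484 seed is shared by 2 other mature miRNAs, miR-3155a and miR-3155b, which had 23 reads and 1 read in all 20 libraries, and the miR-3615 seed by 0 others. Both are rich in G and C, at 63.6% of the bases in miR-484 and 71.4% in miR-3615, against a median of 52.2% over all mature miRNAs. Each is listed under 1 hairpin, so its reads are not divided among copies.

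The position at the transcript start depends on the annotation. In GENCODE 29 the miR-484 hairpin starts 27 bases after the start of NDE1-202 and lies within its first exon, which is untranslated. The NDE1 start in the RefSeq promoter table lies further downstream, so that the hairpin starts 88 bases before it. The miR-3615 hairpin starts 39 bases before the GENCODE start of SLC9A3R1-201 and 15 bases before the RefSeq start. Its mature part begins 11 bases after the GENCODE start, so only the 3′ part of this hairpin lies in the annotated first exon, and an antisense transcript overlaps it on the other strand.

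**Figure D1:**
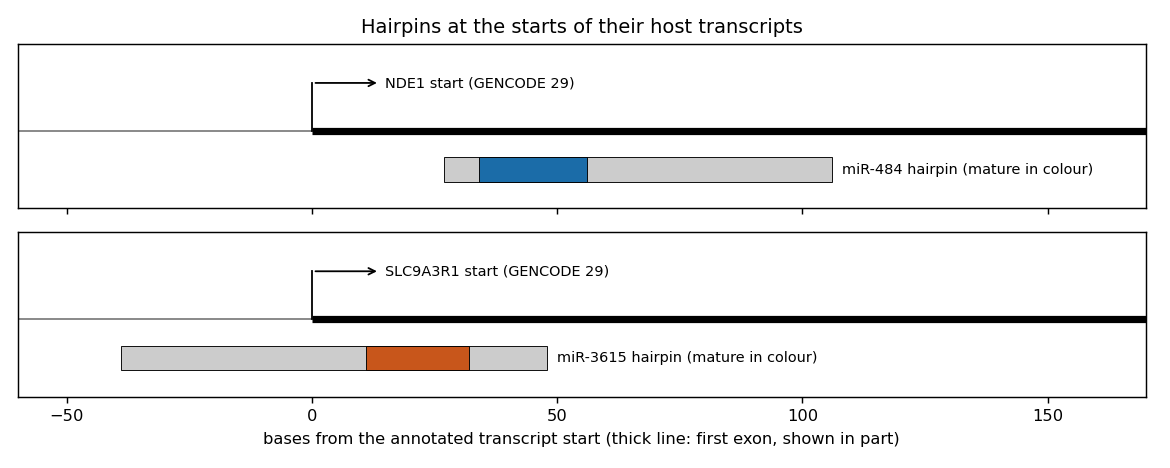
Positions of the hairpins (grey) and mature miRNAs (coloured) relative to the GENCODE 29 transcript start, in bases. The thick line stands for the first exon and has a fixed drawn length, not the exon's annotated length. The miR-484 hairpin starts 27 bases after the NDE1 start, and the miR-3615 hairpin 39 bases before the SLC9A3R1 start.

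The 100 bases before the annotated NDE1 start and before the miR-3615 hairpin are shown as the stretches just upstream. Where transcription through either hairpin begins was not measured. Capitals mark matches to GGGCGG, the GC box bound by Sp1, searched on both strands, and there is no overlap between matches.
NDE1 promoter, chr16:15643167-15643266, plus strand: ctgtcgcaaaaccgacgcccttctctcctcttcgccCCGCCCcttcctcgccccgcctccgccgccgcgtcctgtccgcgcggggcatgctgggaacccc
SLC9A3R1 promoter, chr17:74748513-74748612, plus strand: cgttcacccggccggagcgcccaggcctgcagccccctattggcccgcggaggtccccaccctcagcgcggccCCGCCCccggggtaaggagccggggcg

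Each stretch held 1 GC box, on the minus strand, and 0 matches to TATAAA on either strand. Of 35116 RefSeq promoters, 19.6% held a GC box in the window placed like the NDE1 one and 30.5% in the window placed like the SLC9A3R1 one. The corresponding shares for TATAAA were 4.19% and 5.19%. G and C made up 74.0% and 80.0% of the bases, against medians of 57.0% and 60.0% over all promoters. These are matches of letters, not measured binding.

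Libraries held 38288 (knockout with GFP) to 2822317 miRNA reads (0.1% FBS, replicate 3). Levels are given as CPM, the count per 1000000 miRNA reads. Replicate 3 stood apart in the HCT116 groups, with a chi-square per degree of freedom of 36.4 to 88.9 against replicates 1 and 2 of the same group, which gave 3.57 to 8.29 between themselves. The 6 epithelial and intestinal markers fixed for HCT116 summed to 8514 to 92616 CPM in HCT116 libraries and to 1940.4 to 3124 CPM in HEK293E libraries. In rescued HCT116 cells nearly all of that sum was miR-31-5p. The epithelial miR-200c-3p averaged 94.0 CPM with p140 and 180.3 CPM with full-length DROSHA there. It had 2664 CPM in the knockout with GFP and averaged 19727 CPM in wild-type cells in 9.1% FBS. The intestinal miR-215-5p averaged 0 and 1.22 CPM in rescued HCT116 cells with these forms, and 1.26 CPM in wild-type cells in 9.1% FBS. In HEK293E with the same forms it averaged 41.4 and 51.3 CPM. miR-192-5p was also lower in rescued HCT116 cells (13.7 and 51.2 CPM) than in HEK293E (117 and 164 CPM). The 4 markers fixed for HEK293E summed to 90936 to 154597 CPM in HEK293E and to 1201 to 13248 CPM in HCT116. Over all libraries the 6 blood markers summed to at most 953 CPM, the 3 muscle markers to 66.6, the 2 neural markers to 2551 and the liver marker miR-122-5p to 48.6 CPM.

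Both miRNAs took a far larger share of reads in the knockout with GFP than in untreated wild-type cells. miR-484 had 1546 reads and 40378 CPM (95% exact Poisson interval 38390.3 to 42442) in the knockout with GFP, and 451 reads and 526 CPM (479 to 577) in untreated wild type. miR-3615 had 765 reads and 19980.2 CPM (18589 to 21448) in the knockout with GFP, and 232 reads and 271 CPM (237 to 308) in untreated wild type. miR-484 was the third most abundant miRNA of the knockout library and miR-3615 the seventh. All intervals cover counting error only, and whether PCR copies of a molecule were told apart in these counts is not stated.

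The CPM ratios of knockout with GFP to untreated wild type were 76.7-fold for miR-484 (69.0 to 85.4) and 73.8-fold for miR-3615 (63.6 to 85.8). Against the mean of the wild-type libraries in 9.1% FBS they were 30.1-fold for miR-484 and 93.6-fold for miR-3615, and against 0.1% FBS 46.6-fold and 83.3-fold. Canonical miRNAs went the other way. miR-21-5p, an abundant oncogenic miRNA, had 52915 CPM in the knockout and 378870 CPM in wild type, and the growth-restraining let-7a-5p had 5459 and 35679 CPM. Of the 194 miRNAs that reached 100 reads in one or other of these libraries, 13 were more than 10-fold higher in the knockout (6.7%), and the pair was chosen from among them. With 1 library of each kind there is no replicate check.

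A CPM value rises whenever other reads are lost, so the pair was also set against other DROSHA-independent miRNAs. That list of 28 mature miRNAs (the miR-320 family and mirtrons) took 70.2% of reads in the knockout with GFP and 1.31% in untreated wild type, and miR-320a made up most of it. Per 1000 reads of that list, miR-484 had 57.5 reads in the knockout with GFP and 40.2 in wild type. miR-3615 had 28.5 in the knockout with GFP and 20.7 in wild type. On this scale the knockout was higher by 1.43-fold for miR-484 (1.29 to 1.59) and by 1.38-fold for miR-3615 (1.19 to 1.60). For miR-484 the direction turned against the other wild-type groups, which had 71.3 ± 9.77 (0.1% FBS) and 137 ± 10.9 reads per 1000 (9.1% FBS; SD, n = 3 each). For miR-3615 it held against both, at 19.5 ± 0.96 in 0.1% FBS and 21.9 ± 0.055 in 9.1% FBS.

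Apart from the pair, whose direction was fixed by how it was chosen, the abundant hairpins at an annotated start split. miR-7706 was higher in the knockout and miR-330-3p was lower, the latter on few knockout reads. Of 1881 hairpins, 59 started within 50 bases of the start of a transcript other than a miRNA gene on their own strand, and 4 of these had at least 100 reads of a mature miRNA in either single library. Beside the pair these were miR-7706 (9 bases after an AKAP13 start) and miR-330-3p (17 bases after an EML2 start). miR-7706 reached 100 reads only in the knockout, and miR-330-3p only in wild type. miR-7706 had 135 reads in the knockout and 23 in wild type, a ratio of 131-fold in CPM (84.0 to 214). miR-330-3p had 2 reads in the knockout and 139 in wild type, a ratio of 0.32 with an interval of 0.039 to 1.19. That interval covers no difference, and the median ratio over all 194 miRNAs with 100 reads was 0.16. Start hairpins with fewer reads went both ways, but those lower in the knockout had 0 or 1 read there. Among the lower, miR-2110 had a ratio of 0.26 with an interval of 0.0066 to 1.51. Among the higher, miR-636 had 302-fold (111 to 1148) and miR-4745-3p 224-fold (80.9 to 861), and many others rest on few reads.

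**Figure D2:**
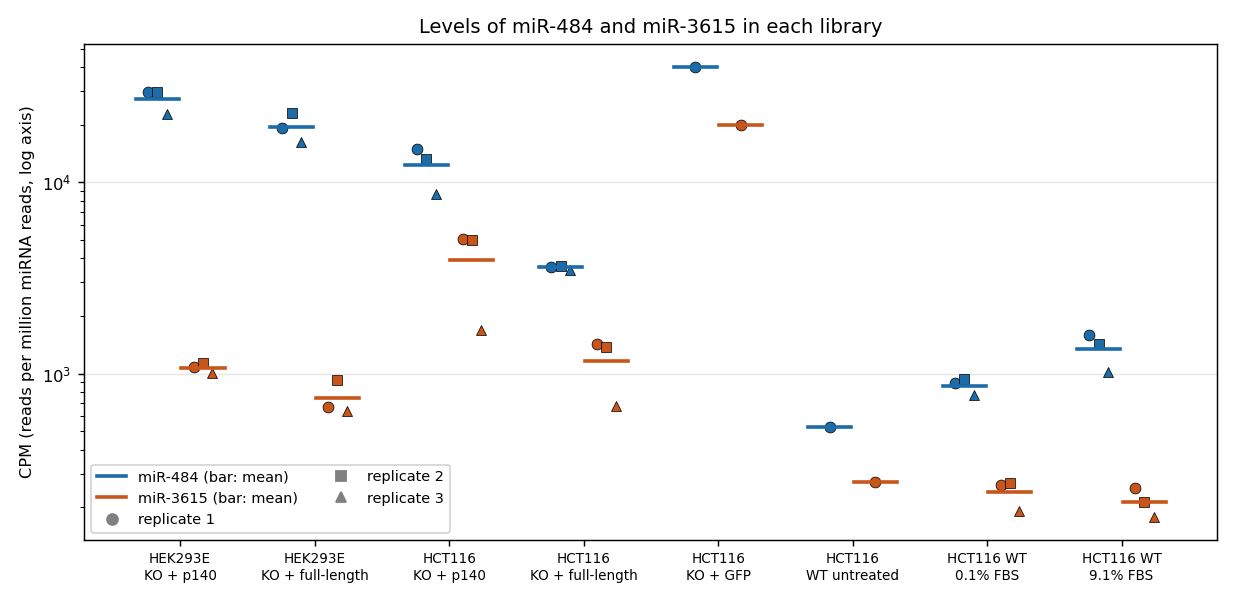
CPM of both miRNAs (log axis) in each of the 20 libraries by group; symbols are replicates and bars are means. miR-484 runs from 526 CPM in untreated wild type to 40378 CPM in the knockout with GFP, and miR-3615 from 177 to 19980.2 CPM.

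Over the 8 groups, miR-484 was highest in the knockout with GFP, followed by HEK293E with p140 (27354 ± 4018 CPM, SD, n = 3), HEK293E with full-length DROSHA (19489 ± 3339), HCT116 with p140 (12274 ± 3232) and HCT116 with full-length DROSHA (3599 ± 90.04). The 3 wild-type groups followed, with 1343 ± 292 CPM in 9.1% FBS, 866 ± 84.2 in 0.1% FBS and 526 in the untreated library. Only the ranges of the 2 HEK293E groups overlapped between neighbours in this order.

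The order was another for miR-3615. After the knockout with GFP came HCT116 with p140 (3910.3 ± 1917 CPM, SD, n = 3), HCT116 with full-length DROSHA (1160.4 ± 419.7), HEK293E with p140 (1076 ± 65.96) and HEK293E with full-length DROSHA (743 ± 160.1). Wild-type cells had 271 CPM in the untreated library, 240.0 ± 42.2 in 0.1% FBS and 213 ± 36.8 in 9.1% FBS. The ranges of HCT116 with full-length DROSHA and HEK293E with p140 overlapped, as did those of the serum groups. In bulk RNA, less of a miRNA per cell and fewer cells that make it cannot be told apart.

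The first replicated comparison sets p140 against full-length DROSHA in HCT116 knockout cells. miR-484 had 14886, 13275 and 8660.3 CPM with p140 (replicates 1 to 3), against 3632, 3668 and 3497 CPM with full-length DROSHA. Every p140 library lay above every full-length library, as did 32.7% of the 446 miRNAs tested. The log2 fold change was 1.70 ± 0.23 (SE; edgeR's quasi-likelihood test, adjusted p = 0.0013), and it was -0.08 when libraries were scaled to the other DROSHA-independent miRNAs.

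miR-3615 had 5034, 5000.0 and 1697 CPM with p140, against 1429, 1376 and 677 CPM with full-length DROSHA in HCT116. The groups did not overlap, but replicate 3 was the lowest library of each. Its log2 fold change was 1.71 ± 0.47 (edgeR, adjusted p = 0.015), and -0.15 on the scale of the other DROSHA-independent miRNAs. The adjusted p was 0.069 without full-length replicate 3 (log2 fold change 1.30) and 0.050 without p140 replicate 2 (1.51).

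Both members were thus among the 28.5% of tested miRNAs called higher with p140 in HCT116, and p140 left each between its level with full-length DROSHA and that of the knockout with GFP. As a share of the level in that single knockout library, miR-484 stood at 30.4% under p140 and at 8.91% under full-length DROSHA. miR-3615 stood at 19.6% under p140 and at 5.81% under full-length DROSHA. Of the 28 other DROSHA-independent miRNAs, 17 passed the filter on low counts, and all of those 17 rose with TMM scaling, with a median log2 fold change of 1.79 against -0.11 over all miRNAs tested. Scaled to the list itself, 0 of the 446 miRNAs were called higher, and the median of all miRNAs was -1.61. miR-320a rose by 1.90 ± 0.46 (adjusted p = 0.010) and the mirtron miR-877-5p by 2.09 ± 0.47 (adjusted p = 0.0090).

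The same comparison in HEK293E knockout cells gave smaller differences. miR-484 had 29626, 29721 and 22715 CPM with p140, against 19143, 22989 and 16337 CPM with full-length DROSHA. The groups overlapped by a single pair of libraries, replicate 3 with p140 and replicate 2 with full-length DROSHA. The log2 fold change was 0.58 ± 0.17 (edgeR, adjusted p = 0.026), and -0.20 on the scale of the other DROSHA-independent miRNAs. Leaving out full-length replicate 3 or p140 replicate 2 ended the call (adjusted p = 0.13 and 0.11).

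miR-3615 had 1081, 1139.8 and 1008 CPM with p140, against 669, 927 and 634 CPM with full-length DROSHA in HEK293E. These rest on 146 to 248 reads with p140 and 150.0 to 216 reads with full-length DROSHA. The groups did not overlap, as was so in this direction for 9.13% of 416 miRNAs tested. The log2 fold change was 0.62 ± 0.20 (edgeR, adjusted p = 0.043), and -0.15 on the scale of the other DROSHA-independent miRNAs. The call was lost without full-length replicate 1 (adjusted p = 0.12) or 3 (0.16), without p140 replicate 2 (0.16) or 3 (0.093), with library totals in place of TMM scaling and without the filter on low counts. It was lost for both members when replicate 3 was left out of both groups (adjusted p = 0.095 for miR-484 and 0.28 for miR-3615).

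In HEK293E 5.29% of tested miRNAs were called higher with p140, and 26.4% were called in either direction. Blocking on the replicate number gave 70 calls higher and 113 lower, against 22 and 88 without it, and both members kept their calls (0.57 for miR-484 and 0.63 for miR-3615). Of the other DROSHA-independent list 14 passed the filter, 5 rose, 0 fell and 9 did not pass the test, with a list median of 0.63 against -0.04 over all tested. miR-320a rose by 0.77 ± 0.16 (edgeR, adjusted p = 0.0041) and miR-877-5p by 0.81 ± 0.15 (adjusted p = 0.0028). The 6 blood markers summed to 111 to 281 CPM with p140 and 455 to 953 CPM with full-length DROSHA in HEK293E. In each group 1 of the 6 was at 0. Most of the sum was miR-486-5p, with means of 174 CPM with p140 and 655 CPM with full-length DROSHA. miR-451a averaged 10.8 and 7.82 CPM, but on 6 reads in each group and with a range of 0 to 32.4 CPM with p140, so it gives no direction. The part of these markers in the result was not tested.

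The fold change with p140 was smaller in HEK293E than in HCT116 by the test of the difference for miR-484, and this test was not passed for miR-3615. The difference of the log2 fold changes (HEK293E minus HCT116) was -1.17 ± 0.29 for miR-484 (edgeR interaction over 12 libraries, adjusted p = 0.039) and -1.11 ± 0.52 for miR-3615 (adjusted p = 0.25, unadjusted p = 0.052). Calls in this test were few, at 3.3% of 515 miRNAs in either direction. For miR-484 the difference was -0.13 on the scale of the other DROSHA-independent miRNAs, and the adjusted p rose past the threshold for 11 of the 12 libraries left out singly. For miR-3615 it was -1.44 (adjusted p = 0.012) without HCT116 p140 replicate 3. miR-320a had -1.16 ± 0.49 (adjusted p = 0.20) and miR-877-5p -1.31 ± 0.50 (adjusted p = 0.16).

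**Figure D3:**
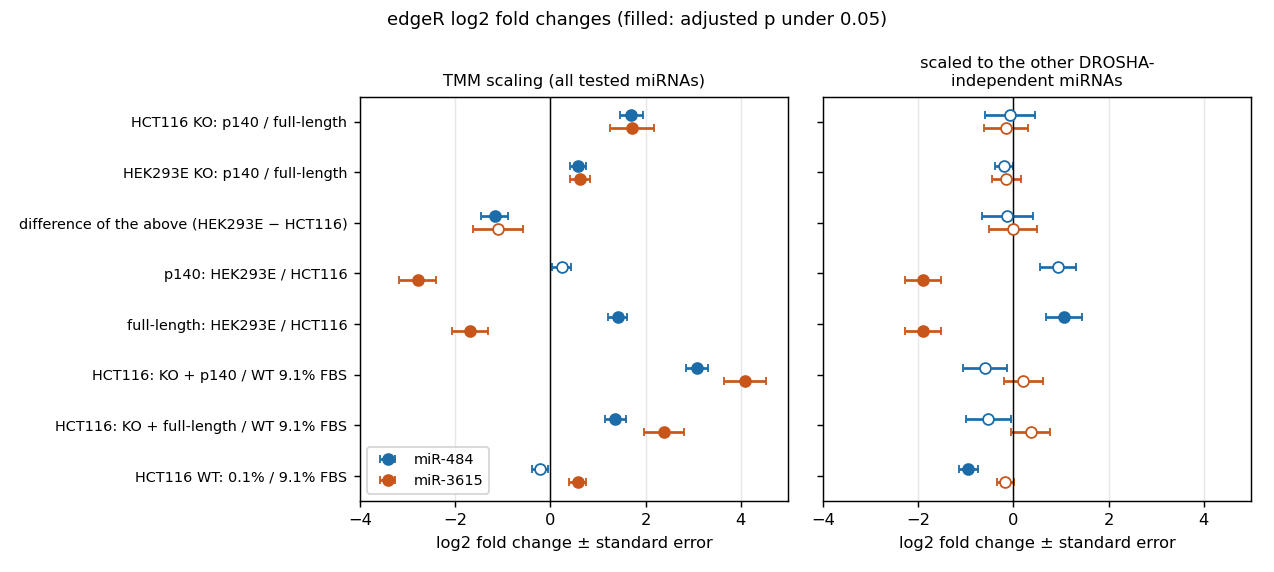
Log2 fold changes (± standard error) of both miRNAs in 8 edgeR comparisons with TMM scaling (left) and with scaling to the other DROSHA-independent miRNAs (right); filled points have an adjusted p under 0.05. With p140 against full-length DROSHA in HCT116 the values are 1.70 and 1.71 on the left and -0.08 and -0.15 on the right.

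The proportions of the pair did not overlap between the 2 lines. With p140, 100 miR-484 reads were accompanied by 3.65, 3.84 and 4.44 miR-3615 reads in HEK293E, against 33.8, 37.7 and 19.6 in HCT116. With full-length DROSHA they were accompanied by 3.49, 4.03 and 3.88 in HEK293E, against 39.3, 37.5 and 19.3 in HCT116. This ratio is taken within a library and depends on no scaling. In HEK293E it was 7.38-fold lower among p140 libraries and 8.05-fold lower among full-length libraries. An exact two-sided permutation test gave p = 0.1 for each, the smallest that 3 against 3 libraries allow, and p = 0.14 after adjustment over 7 pairs of groups. Separation between the lines was common. In plain CPM, 63.1% of 515 single miRNAs lay wholly higher in HEK293E with full-length DROSHA. With p140, 52.4% lay wholly higher and 16.7% wholly lower. The share of other miRNA pairs whose ratio separates was not tested, so this is not shown to be particular to the pair.

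Taken singly, the members moved in opposite directions between the lines. With full-length DROSHA, HEK293E was higher than HCT116 for miR-484 by 1.41 ± 0.21 on the log2 scale (edgeR, adjusted p = 3.1e-05), and lower for miR-3615 at -1.68 ± 0.38 (adjusted p = 0.0012). Both directions held on the scale of the other DROSHA-independent miRNAs, at 1.06 and -1.89. Scaling by library totals alone put the median of all miRNAs at 1.18 (0.16 with TMM), and gave 2.44 for miR-484 and -0.64 (adjusted p = 0.11) for miR-3615. In plain CPM all HEK293E libraries lay above the HCT116 ones for miR-484, as for 63.1% of miRNAs tested, and the ranges of miR-3615 overlapped.

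With p140, miR-3615 was lower in HEK293E, with a log2 fold change of -2.79 ± 0.39 (edgeR, adjusted p = 2.0e-05), while miR-484 had 0.24 ± 0.21 (adjusted p = 0.34). For miR-484 it became 1.16 (adjusted p = 9.5e-05) with library totals alone, which put the median of all miRNAs at 0.95 (0.03 with TMM), and 0.93 (adjusted p = 0.060) on the scale of the other DROSHA-independent miRNAs. In plain CPM the p140 libraries of the lines did not overlap for either member, with miR-484 among the 52.4% of miRNAs wholly higher in HEK293E and miR-3615 among the 16.7% wholly lower. Of 515 miRNAs tested, 34.6% were called higher and 27.4% lower in HEK293E with full-length DROSHA, and 27.6% higher and 27.8% lower with p140. Of the 17 other DROSHA-independent miRNAs tested, 5 were called higher and 4 lower in HEK293E with full-length DROSHA, and 0 higher and 11 lower with p140. The 2 HCT116 and 2 HEK293E groups are shared with the comparisons of DROSHA forms.

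**Figure D4:**
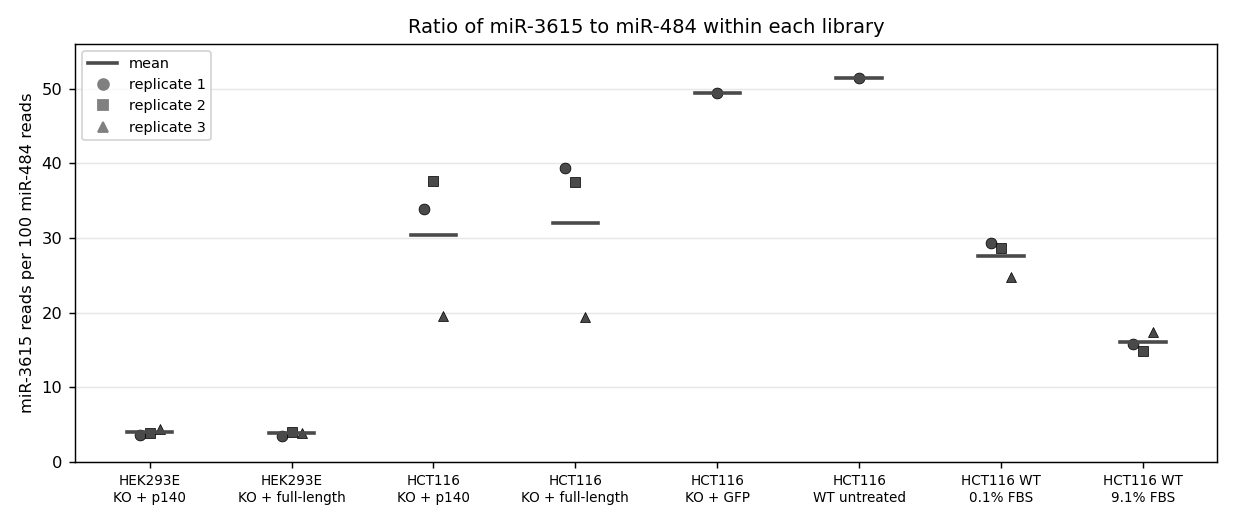
miR-3615 reads per 100 miR-484 reads in each library by group; symbols are replicates and bars are means. The HEK293E libraries lie between 3.49 and 4.44, and the HCT116 libraries between 14.9 and 51.4.

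Between p140 and full-length DROSHA the ranges of the ratio overlapped in both lines. The log2 ratio of miR-3615 to miR-484 in HCT116 averaged -1.77 ± 0.51 with p140 and -1.71 ± 0.57 with full-length DROSHA (SD, n = 3), and an exact permutation test gave p = 0.8, but 3 against 3 libraries cannot reach 0.05 whatever the shift. In HEK293E it averaged -4.66 ± 0.15 with p140 and -4.72 ± 0.11 with full-length DROSHA (exact p = 0.7). Within HCT116 the libraries numbered 3 had nearly the same ratio in both groups, 19.6 miR-3615 reads per 100 miR-484 reads with p140 and 19.3 with the full-length form, and stood below all libraries numbered 1 and 2.

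miR-3615 kept a steady proportion to the summed reads of the other DROSHA-independent miRNAs, mostly miR-320a, across HCT116 libraries. Per 1000 reads of that list it had between 18.6 and 30.1 reads (median 22.9) in the 14 libraries, a 1.62-fold range, while its CPM spanned 113-fold. miR-484 had between 40.2 and 147 reads per 1000 (median 76.2), a 3.66-fold range, while its CPM spanned 76.7-fold. In the libraries numbered 3 of the HCT116 knockout groups, where the list held 6.64% of p140 reads and 2.62% of full-length reads, miR-3615 had 25.6 and 25.8 reads per 1000, against 23.9 and 26.5 with p140 and 28.4 and 30.1 with full-length DROSHA in replicates 1 and 2. miR-484 had 131 and 134 reads per 1000 there, against 70.2 and 70.8 with p140 and 72.3 and 80.2 with full-length DROSHA in those replicates. Since miR-320a supplied most reads of the list, this scale is close to a ratio to miR-320a. miR-320a itself spanned 1.14-fold on it over the same libraries. The mirtrons taken for comparison were less steady. Their ranges were 3.77-fold for miR-877-5p, 9.4-fold for miR-1226-3p and 17.8-fold for miR-1229-3p. The last of these rest on few reads, with 11 for miR-1226-3p and 7 for miR-1229-3p in untreated wild type. The other miR-320 members were not set on this scale singly, so steadiness is not shown to be particular to miR-3615.

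**Figure D5:**
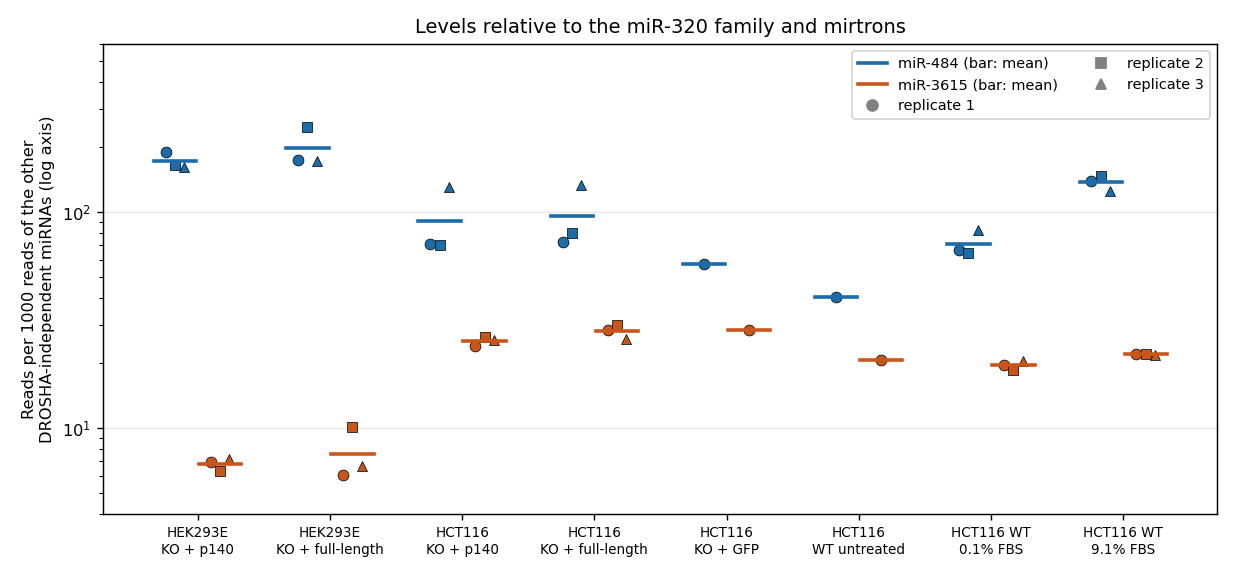
Reads of both miRNAs per 1000 reads of the miR-320 family and mirtrons (log axis) in each library by group; symbols are replicates and bars are means. miR-3615 lies between 18.6 and 30.1 in all 14 HCT116 libraries and between 6.06 and 10.04 in the 6 HEK293E libraries.

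In HEK293E the proportions were others. miR-3615 had 6.06 to 10.04 reads per 1000 reads of the list and miR-484 had 162 to 249. Thus miR-3615 lay below, and miR-484 above, all HCT116 libraries. Separation on this scale was not particular to the pair. The mirtron miR-877-5p also lay wholly higher, at 53.1 to 67.4 in HEK293E against 13.4 to 50.4 in HCT116. The ranges of miR-320a and of the other mirtrons named above overlapped between the lines. The share of all miRNAs that separate on this scale was not tested.

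Rescued HCT116 knockout cells held more of both miRNAs than wild-type cells in 9.1% FBS. miR-484 was higher by 3.08 ± 0.23 on the log2 scale with p140 (edgeR, adjusted p = 6.2e-07) and by 1.37 ± 0.21 with full-length DROSHA (adjusted p = 3.3e-04). miR-3615 was higher by 4.08 ± 0.44 with p140 (adjusted p = 8.2e-06) and by 2.39 ± 0.41 with full-length DROSHA (adjusted p = 6.1e-04). All 6 rescued libraries lay above the 3 wild-type libraries for both members, as was so for 34.8% of tested miRNAs with p140 and 35.2% with full-length DROSHA. These calls ended on the scale of the other DROSHA-independent miRNAs, where miR-484 had -0.60 with p140 and -0.52 with the full-length form, and miR-3615 had 0.21 and 0.36. Among 563 miRNAs tested, 33.0% were called higher with p140 and 29.7% with the full-length form, and both comparisons share the same wild-type libraries. All 18 of the other DROSHA-independent miRNAs that passed the filter were called higher in each, with medians of 3.81 with p140 and 2.04 with full-length DROSHA. The ratio of miR-3615 to miR-484 was 1.83-fold higher with p140 and 1.91-fold higher with full-length DROSHA than in 9.1% FBS (exact permutation p = 0.1 each, adjusted p = 0.14), and the untreated wild-type library, at 51.4 miR-3615 reads per 100 miR-484 reads, lay above all of these. The rescue and serum experiments cannot be told apart from the genotypes here, and the part of the low miR-200c-3p of rescued cells in this result was not tested.

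The ratio of miR-3615 to miR-484 was higher in every 0.1% FBS library than in every 9.1% FBS library, although the test of the ratio does not pass. In wild-type HCT116 cells miR-484 had 893, 933 and 771 CPM in 0.1% FBS, against 1588, 1421 and 1021 CPM in 9.1% FBS, with no overlap, as in this direction for 46.8% of miRNAs tested. miR-3615 had 261, 267 and 191 CPM in 0.1% FBS, against 251, 212 and 177 CPM in 9.1% FBS, with overlap. Per 100 miR-484 reads there were 29.3, 28.6 and 24.8 miR-3615 reads in 0.1% FBS, against 15.8, 14.9 and 17.4 in 9.1% FBS. The ratio was 1.72-fold higher in 0.1% FBS, with no overlap and an exact permutation p of 0.1, the smallest the design allows (0.14 adjusted over 7 pairs). Here too, the share of other miRNA pairs whose ratio separates was not tested.

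Which member moved depends on the scaling. With TMM scaling miR-3615 rose by 0.58 ± 0.18 on the log2 scale (edgeR, adjusted p = 0.027), and miR-484 had -0.23 ± 0.17 (adjusted p = 0.30). With library totals alone, which put the median of all miRNAs at -0.44 (-0.03 with TMM), miR-484 fell by 0.63 (adjusted p = 0.014) and miR-3615 had 0.17 (adjusted p = 0.44). On the scale of the other DROSHA-independent miRNAs miR-484 fell by 0.94 (adjusted p = 0.0043) and miR-3615 turned to -0.17. With TMM scaling, the miR-3615 call was lost when 9.1% FBS replicate 2 (adjusted p = 0.071) or 3 (0.054) or 0.1% FBS replicate 1 (0.088) or 2 (0.064) was left out, and miR-484 was called lower without 9.1% FBS replicate 3 (-0.40, adjusted p = 0.021). Of 577 miRNAs tested, 25.5% were called higher and 20.3% lower. The 6 blood markers summed to 187 to 210 CPM in 0.1% FBS and 55.6 to 76.8 CPM in 9.1% FBS. In either group 0 of the 6 were at 0. These markers split: miR-451a, miR-142-3p, miR-142-5p and miR-486-5p (85.7 against 11.4 CPM) averaged higher in 0.1% FBS. In contrast, miR-223-3p (1.3 against 5.6 CPM) and miR-150-5p (2.7 against 6.5 CPM) averaged lower. The part of the blood markers in the result was not tested.

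The other DROSHA-independent miRNAs split in the same comparison. All 5 members of the miR-320 family passed the test and rose in 0.1% FBS, miR-320a by 0.82 ± 0.17 (edgeR, adjusted p = 0.0048) and miR-320b by 0.76 ± 0.21 (adjusted p = 0.016). Of the 7 mirtron products tested, miR-1224-5p rose by 0.88 ± 0.27 (adjusted p = 0.030). The products miR-877-3p (-0.92), miR-1226-3p (-0.94) and miR-1226-5p (-2.37) fell, with adjusted p-values of 0.0085, 0.0089 and 0.0011. The list median was 0.18 against -0.03 over all tested. These directions are relative to the bulk of tested miRNAs, whose median was -0.44 with library totals and -0.75 on the list's own scale.

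Over the 8 group means the 2 members did not resemble each other most. Among 265 miRNAs with a mean of at least 100 CPM, the Pearson correlation of log2(CPM + 1) between miR-484 and miR-3615 was 0.79, which ranked miR-3615 at 44 of the miRNAs most like miR-484. Those most like miR-484 were miR-6511a-3p (0.999), miR-877-3p (0.998), miR-6747-3p (0.997), miR-636 (0.990) and miR-877-5p (0.989). Those most like miR-3615 were miR-1224-5p (0.997), miR-3605-3p (0.997), miR-3928-3p (0.978), miR-6886-5p (0.972) and miR-4745-3p (0.969). The points share libraries and a common total, and the single knockout library lies far from the others. Over the other 7 groups, with the floor of 100 CPM taken over those alone (chosen after seeing the data), 4 of the 5 named for miR-484 were kept. None of the 5 named for miR-3615 was kept (0 of 5): miR-1224-5p, with 888 CPM in the knockout with GFP and group means of 6.70 to 228 CPM elsewhere, and miR-3605-3p, with 1123 CPM and 13.4 to 272 CPM, reached the floor only through that library.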

How the data were processed

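Per the labels' protocols, total RNA was taken up in TRIzol, DNase-treated, mixed with spike-in RNAs, size-selected on a gel, joined to adaptors with random bases and read on an Illumina MiSeq. The genome build hg38 and the tools bedtools, STAR and cutadapt are named, without versions, per the submitters' processing notes. How multi-mapping reads were treated, and whether random bases were used, is not stated in these sources. What the authors deposited are raw read counts for each mature miRNA and hairpin (2813 per library, no spike-ins), at 38288 to 2822317 reads per library. For the 167 mature miRNAs with several hairpins, the copy with the highest total was kept.

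CPM is relative to the library's miRNA total. The test between groups was the quasi-likelihood F test of edgeR 4.0.16 (R 4.3.3; two-sided, TMM scaling, filterByExpr with a minimum count of 10, Benjamini-Hochberg over all miRNAs tested, threshold 0.05), without a replicate block. The code was tested on simulated data. Each DROSHA comparison and the serum experiment were fitted alone, the lines and the interaction over 12 libraries, and rescue against wild type over 9. Alternatives were DESeq2 1.42.0, no filter, library totals, scaling to 28 other DROSHA-independent miRNAs, a joint fit of 18 libraries, a replicate block and leaving out libraries. Same-numbered libraries deviated together in the DROSHA comparisons (correlations 0.16 to 0.42 in HCT116, 0.14 to 0.23 in HEK293E) and between full-length rescue and 9.1% FBS (0.11 to 0.33). The blocked fit is given beside a result there where it moves a count of calls by over 1.5 times. Between p140 and full-length DROSHA in HCT116, libraries 1 and 2 also deviated together across numbers (0.10 and 0.19), so pairing by number is not shown for these. The labels do not say what the numbers stand for. The members, the lists and the tests were chosen with earlier results of these data known. Named miRNAs are the pair, 4 members of the DROSHA-independent list, miR-21-5p, let-7a-5p, the 5 most alike to each member by correlation, and abundant hairpins within 50 bases of a transcript start. Individual miR-320b, miR-877-3p, miR-1224-5p and miR-1226-5p values in serum were added after they were seen. Transcript starts are from GENCODE 29.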

Additional observations from a re-analysis of the deposited data

Results flagged for a closer look

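With TMM scaling the effect of p140 on miR-484 was called different between the lines, but the call was not stable. The difference of log2 fold changes, HEK293E minus HCT116, was -1.17 (edgeR interaction, adjusted p = 0.039). With this scaling p140 was higher than full-length DROSHA in both lines. The call was lost for 11 of the 12 libraries left out singly (adjusted p up to 0.20) and without the low-count filter (0.075). For miR-484 the difference was -0.13 on the scale of the other DROSHA-independent miRNAs. The difference for miR-3615 was -1.11 with TMM scaling and was not called (adjusted p = 0.25).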

How the results depend on the processing

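Values here are log2 fold changes, with edgeR's adjusted p unless stated. Scaled to the other DROSHA-independent miRNAs, p140 against full-length DROSHA gave -0.075 (miR-484) and -0.15 (miR-3615) in HCT116 and -0.20 and -0.15 in HEK293E, all turned in sign. The interaction for miR-484 became -0.13. Rescue against 9.1% FBS gave -0.60 and 0.21 with p140, and -0.52 and 0.36 with full-length DROSHA. In 0.1% against 9.1% FBS it gave -0.94 and -0.17, and for the knockout with GFP against untreated wild type 0.52 and 0.46. By its construction this scaling sets the list's summed reads equal in all libraries. On it the calls were 0 higher and 128 lower in HCT116 (127 and 139 with TMM), 3 and 211 in HEK293E (22 and 88), 19 and 274 in serum (147 and 117), 23 and 445 for p140 rescue (186 and 251) and 19 and 341 for full-length rescue (167 and 146).

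Library totals alone gave 0.53 for miR-3615 in HEK293E, -0.63 for miR-484 and 0.17 for miR-3615 in serum, -0.64 for miR-3615 between lines with full-length DROSHA and 1.16 for miR-484 between lines with p140. The calls were then 73 higher and 248 lower in serum, 311 and 69 between lines with full-length DROSHA (178 and 141 with TMM), and 267 and 85 with p140 (142 and 143). Without a low-count filter miR-3615 had 0.59 in HEK293E and miR-484 -0.93 in the interaction, no longer called. The joint fit gave miR-3615 0.67 in HEK293E and 0.40 in serum, not called. The cause was not tested for these changes. With DESeq2 no call of either member changed.

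The replicate block changed 1 call of the members, miR-484 in serum (-0.21, adjusted p = 0.030), where same-numbered libraries correlated at 0.091 to 0.54 and share only a number. Leaving out replicate 3 of all groups, chosen after seeing the data, gave 0.59 and 0.57 in HEK293E (not called), -0.29 for miR-484 in serum (called) and -1.19 for miR-3615 in the interaction (called). Leaving out single libraries gave 1.49 to 1.84 (miR-484) and 1.30 to 1.98 (miR-3615) in HCT116, 0.46 to 0.70 and 0.51 to 0.76 in HEK293E, -0.40 to -0.15 and 0.45 to 0.69 in serum, and -1.36 to -0.89 and -1.44 to -0.79 in the interaction. Interaction calls numbered 11 higher and 6 lower, 0 and 0 on the list's scale, 28 and 57 without HCT116 p140 replicate 3, and 3 and 2 without HEK293E p140 replicate 2. Without a filter, p140 rescue had 377 calls higher and 396 lower. The p140 difference in the log2 ratio of miR-3615 to miR-484 ranged from -0.39 to 0.22 in HCT116 and from -0.021 to 0.12 in HEK293E.

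With 9.1% FBS as wild type, the knockout with GFP had 4.91 and 6.55. With a minimum mean of 10 CPM, 2 of the 5 most alike miRNAs were kept for each member. Without the knockout and with the floor taken over the other 7 groups, 4 were kept for miR-484 and 0 for miR-3615. Within 100 bases of a transcript start there were 111 hairpins, and within 20 bases 34. The knockout library's depth of 38288 reads limits the values that rest on it.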
